A study of Mus musculus with 45 samples.

Results

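The genes described here are the 10 mouse genes of the MHC class II system: the chain genes H2-Aa, H2-Ab1 and H2-Eb1, the peptide loading genes H2-DMa, H2-DMb1, H2-DMb2, H2-Oa and H2-Ob, the invariant chain gene Cd74 and the transactivator gene Ciita. They were taken by symbol from both deposited tables, where they are 10 of 47729 genes. All 10 were found in both tables. The study sequenced bulk RNA from 45 subcutaneous tumours of CT26, an undifferentiated mouse colon carcinoma line, grown in double knock-in mice of BALB/c background that carry human PD-1 and human TIGIT. Both receptors restrain T cells; serplulimab and pembrolizumab block the former, HLX53 and tiragolumab the latter. All mice of both experiments, the vehicle groups included, carried the knock-in genes and were injected intraperitoneally 2 times a week from day 8.

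Experiment T2106 held 6 groups of 3 tumours: vehicle (saline), serplulimab, HLX53, the pair of pembrolizumab and tiragolumab, and 2 groups that received serplulimab together with HLX53 at 5 or at 10 mg/kg. Experiment T2215 held 9 groups of 3 tumours: vehicle, each of the 4 antibodies alone, and the 4 pairs of a PD-1 antibody with a TIGIT antibody. Apart from the group at 5 mg/kg, antibodies were given at 10 mg/kg. The sample labels name the cultured carcinoma cell, but the RNA is that of whole tumours. Vim, a filament gene of mesenchymal cells, had 1355 to 4028 FPKM in every library (FPKM is a read level scaled to gene length and library size), and Krt18, an epithelial keratin gene, 4.49 to 42.7. Epcam, an epithelial surface gene, had medians of 0.45 FPKM in T2106 and 1.12 in T2215. Ptprc, which encodes the leukocyte antigen CD45, had at least 13.2 FPKM in every library, so host blood cells were present throughout. In bulk RNA, fewer cells of a type and less RNA per cell cannot be told apart, and the levels below are those of all cells of a tumour together. How deeply each library was read is unknown.

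MHC class II molecules display peptides from engulfed or internal proteins to CD4 T cells. They are made mainly by dendritic cells, macrophages and B cells, and other cells, tumour cells among them, can be induced to make them by interferon gamma. The alpha and beta chains assemble on the invariant chain, H2-DM exchanges its remnant for a peptide, and H2-O restrains H2-DM. Transcription of the class II chain genes depends largely on CIITA. It does not bind DNA itself but docks on proteins that occupy the X and Y boxes of class II promoters (RFX, CREB and NF-Y).

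All coordinates are those of GRCm38 with the GENCODE M21 annotation. The 8 H2 genes lie in one stretch of chromosome 17. H2-Oa (ENSMUSG00000024334, 34092340 to 34095234, plus strand) and H2-Ob (ENSMUSG00000041538, 34238903 to 34254414, plus) encode the chains of H2-O. H2-DMa (ENSMUSG00000037649, 34119541 to 34139101, plus), H2-DMb2 (ENSMUSG00000037548, 34143307 to 34151555, plus) and H2-DMb1 (ENSMUSG00000079547, 34153072 to 34160230, plus) encode those of H2-DM. H2-Ab1 (ENSMUSG00000073421, 34257689 to 34269419, plus) and H2-Aa (ENSMUSG00000036594, 34282744 to 34287823, minus) encode the beta and alpha chain of I-A, and H2-Eb1 (ENSMUSG00000060586, 34305867 to 34316674, plus) encodes the beta chain of I-E. Ciita (ENSMUSG00000022504) lies on chromosome 16, 10480059 to 10528418, plus strand. H2-DMb1 shares 31.4% of its 31-base stretches with H2-DMb2, so reads can be split between these genes, and their separate values are uncertain. H2-DMa overlaps Brd2 on the other strand, Ciita overlaps Dexi, and H2-Eb1 and H2-Oa overlap annotated antisense genes. No source used here says whether counting used strand.

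Since the members moved together, stretches of their promoters are shown, from RefSeq's GRCm38.p6 table of windows that begin 250 bases before each gene's start. A window was found for 7 members (H2-Aa, H2-Eb1, H2-DMa, H2-DMb1, H2-DMb2, H2-Oa and H2-Ob). None was found for H2-Ab1 and Ciita, and Cd74 was left out of the search, so the counts below do not cover it. Capitals mark TGATTGG, the core of the Y box read 5′ to 3′, and, where present, AACNNATG, letters of the X box. The letters of both motifs were set after these promoters had been read, and both strands were searched. The reference strain is not BALB/c.
H2-Aa, chr17:34287854-34287918, minus strand: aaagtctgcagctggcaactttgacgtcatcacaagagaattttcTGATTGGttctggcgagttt
H2-Eb1, chr17:34305761-34305825, plus strand: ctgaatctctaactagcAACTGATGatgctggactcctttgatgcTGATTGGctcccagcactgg
H2-DMb2, chr17:34145112-34145176, plus strand: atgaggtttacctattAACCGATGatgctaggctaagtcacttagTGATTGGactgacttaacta
H2-Oa, chr17:34092289-34092340, plus strand: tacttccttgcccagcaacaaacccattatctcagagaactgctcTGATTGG
H2-Ob, chr17:34238801-34238865, plus strand: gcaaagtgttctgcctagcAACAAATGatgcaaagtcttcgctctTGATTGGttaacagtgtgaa

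TGATTGG lay in the window of 6 of these 7 members, each time 1 time and on the strand of the gene, beginning between positions −92 and −45 relative to the start. It lay in 7.23% of all 32851 promoter windows. Both motifs lay in the windows of 4 members (H2-Eb1, H2-DMb1, H2-DMb2 and H2-Ob), with 18 to 21 bases between them, and in 0.664% of all windows. AACNNATG alone lay in 7.71% of all windows. H2-DMa held neither motif in its 2 windows. A match of letters is a description and shows no binding.

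Some libraries stood apart from the others on genes other than the members. In T2106 vehicle replicate 2, replicate 3 of serplulimab plus HLX53 at 5 mg/kg and HLX53 replicate 2 had the highest loadings on principal component 2 (0.72, 0.41 and 0.26), which held 6.43% of the variance. The others had −0.28 to 0.08, and HLX53 replicate 3, at −0.28, lay as far to the other side as HLX53 replicate 2, so the separation of that library was the least clear. In T2215 serplulimab replicate 1 lay apart on component 2, with the highest skeletal muscle score of that experiment (a mean of 10.3 on the log2 scale), and serplulimab replicate 3 lay apart on component 3. These 5 are called the libraries that lay apart. Where leaving them out changed a call, a direction or moved a median of the members by over 1.5 times, both values are given.

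Of the members, Cd74 (ENSMUSG00000024610, chromosome 18, 60803848 to 60812652, plus strand, GRCm38) had the highest level and H2-Oa and H2-Ob the lowest. Over the 18 tumours of T2106 Cd74, whose product escorts and stabilises new class II chains, ranged from 171 to 2625 FPKM with a median of 461. H2-Eb1 ranged from 21.3 to 627, H2-Aa from 5.07 to 237 and H2-Ab1 from 5.47 to 113. H2-DMa ranged from 10.6 to 106, H2-DMb2 from 4.16 to 38.4 and H2-DMb1 from 2.24 to 33.5. Ciita was far lower per length, at 0.496 to 12.2 FPKM with a median of 2.51. In T2215 Cd74 ranged from 57.0 to 2214.9 FPKM, H2-Eb1 from 9.45 to 495, H2-Aa from 3.96 to 198, H2-Ab1 from 2.46 to 108 and Ciita from 0.281 to 9.02. There, replicate 2 of serplulimab plus HLX53 had the highest value of all 10 members, and replicate 2 of pembrolizumab plus tiragolumab the lowest of 9, the exception being H2-Oa.

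H2-Oa and H2-Ob, genes typical of B cells and some dendritic cells, were near the lower limit. H2-Oa reached 0.5 FPKM in 7 of 18 libraries of T2106 and 8 of 27 of T2215, and H2-Ob in 4 and 4. They passed the filter on low values (0.5 FPKM in at least 3 libraries) through the libraries in which they were high. The other 8 members passed it with all or nearly all libraries, so 10 of 10 were tested in both experiments.

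**Figure D1:**
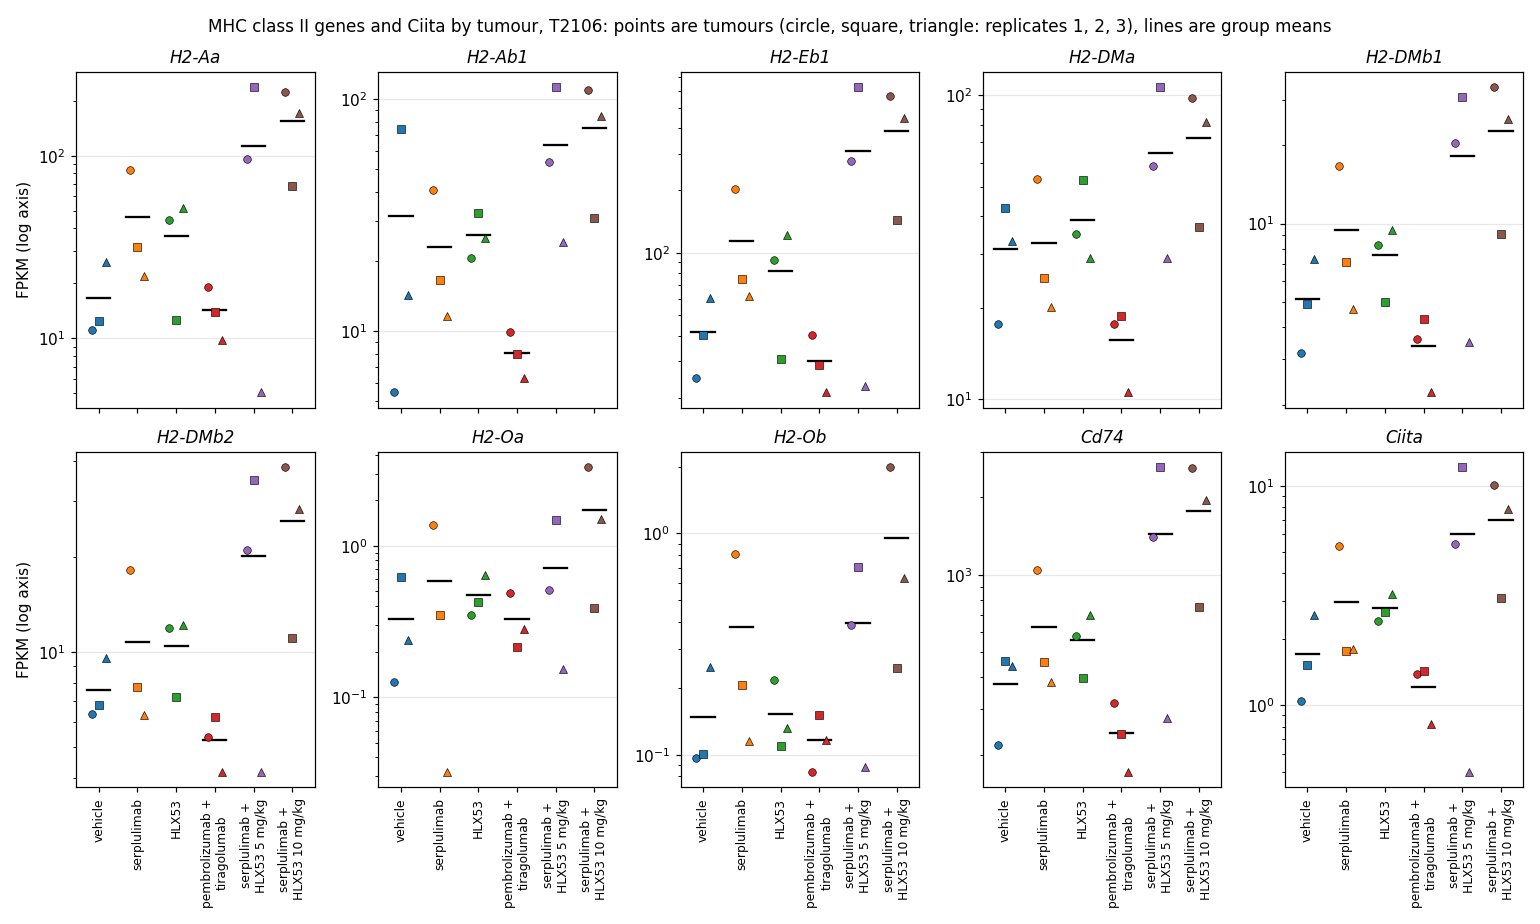
Level of each of the 10 genes in each of the 18 tumours of T2106, in FPKM on a log axis that differs between panels; points are tumours, shaped by replicate, and lines are group means. In serplulimab plus HLX53 at 5 mg/kg, replicate 3 lies far below the other 2 tumours for H2-Aa (5.07 against 95.9 and 237 FPKM), while all 3 tumours at 10 mg/kg lie above all vehicle tumours for H2-Aa.

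The order of the group means in T2106 was the same for Cd74 and Ciita. From low to high, Cd74 had a mean of 243 ± 73.0 FPKM with pembrolizumab plus tiragolumab, 375 ± 137 with vehicle and 558 ± 150 with HLX53 (SD, n = 3 here and for all groups). It had 629 ± 363 with serplulimab, and 1437 ± 1174 and 1766 ± 936 with serplulimab plus HLX53 at 5 and 10 mg/kg. Ciita had means of 1.22 ± 0.345, 1.72 ± 0.788, 2.77 ± 0.404, 2.97 ± 2.04, 6.04 ± 5.85 and 7.02 ± 3.59 FPKM in the same order. For both genes the ranges of neighbouring groups in this order overlapped in every case.

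In T2215 the order again began with pembrolizumab plus tiragolumab and ended with serplulimab plus HLX53. Cd74 had a mean of 164 ± 146 FPKM with pembrolizumab plus tiragolumab, 300.2 ± 74.5 with pembrolizumab, 373 ± 416 with tiragolumab and 525 ± 450 with serplulimab plus tiragolumab. It had 664 ± 626 with HLX53, 681 ± 259 with vehicle, 716 ± 1034 with serplulimab, 928 ± 593 with pembrolizumab plus HLX53, and 1473 ± 861 with serplulimab plus HLX53. The ranges of neighbours overlapped throughout. Ciita had means from 0.967 ± 1.12 FPKM (pembrolizumab plus tiragolumab) to 5.51 ± 3.49 (serplulimab plus HLX53), with 3.34 ± 1.63 in vehicle. The spread within a group was often as wide as that between groups: in the serplulimab group Cd74 had 99.5, 137 and 1910 FPKM, and Ciita 0.453, 0.768 and 3.36. The first and the third of these tumours are among those that lay apart.

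**Figure D2:**
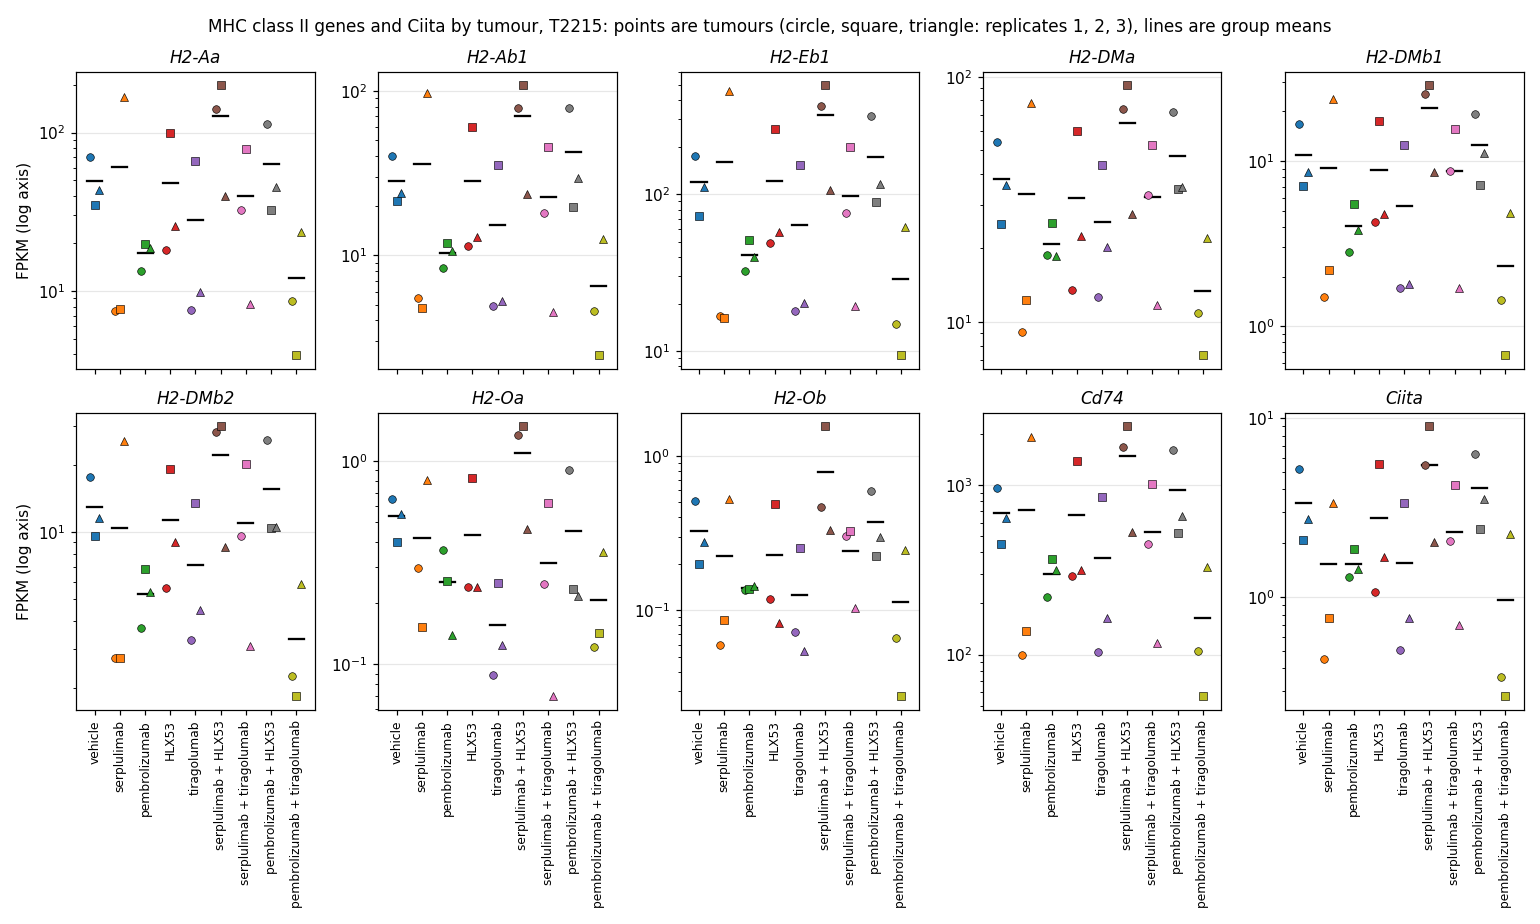
Level of each of the 10 genes in each of the 27 tumours of T2215, in FPKM on a log axis that differs between panels; points are tumours, shaped by replicate, and lines are group means. Most groups overlap. For Cd74 all 3 tumours given pembrolizumab plus tiragolumab (57.0 to 330.4 FPKM) lie below the vehicle tumours (445 to 958). So do all 3 given pembrolizumab alone (219.8 to 366.8). Single tumours such as serplulimab replicate 3 (Cd74 at 1910 FPKM) lie far from the other 2 of their group.

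Groups accounted for part of the variance of the members. In T2106 it was 35.1% (H2-Oa) to 61.0% (H2-DMa), beside a median of 51.1% and a 75th percentile of 61.6% over all genes tested. In T2215 it was 39.4% (H2-DMa) to 50.6% (H2-Oa), beside a median of 34.7% and a 75th percentile of 42.2%. All members except H2-Aa and H2-DMa lay above that percentile in T2215, and none did in T2106.

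Serplulimab plus HLX53 at 10 mg/kg against vehicle in T2106 asked what the pair did to the tumours, and it was the sole comparison of 21 in which members passed the test. By limma with Benjamini-Hochberg adjustment over all genes tested, 5 of 10 members were higher, H2-Aa, H2-Eb1, H2-DMb1, H2-Ob and Cd74, and 0 were lower. Of all 15070 genes, 23.4% were higher in this comparison. H2-Ob reached 0.5 FPKM in 4 of 18 libraries, tumours of this treated group among them (median 0.627), while vehicle stayed at or below 0.248. It thus passed the filter partly through the group in which it was called, and its call is not independent of the filter. An unadjusted p under 0.05 was found for 10 of 10 members and for 56.0% of all genes, counting either direction. All 10 members had positive differences, with a median of 1.75 on the log2(FPKM + 0.5) scale, beside −0.04 for all genes.

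Among the classical chains, H2-Aa, the alpha chain of I-A, had 11.2, 12.5 and 26.1 FPKM in the vehicle tumours and 224, 67.9 and 171 in the treated ones. The groups did not overlap, and H2-Aa rose by 3.12 ± 1.04 (log2 difference with its SE, adjusted p = 0.0289 by limma). H2-Eb1, the beta chain of I-E, had 24.9, 40.1 and 60.4 FPKM with vehicle and 570, 144 and 444 with treatment, again without overlap. It rose by 3.06 ± 0.95 (adjusted p = 0.0227 by limma). H2-Ab1, the partner chain of H2-Aa, had 5.47, 74.5 and 14.3 FPKM with vehicle and 109, 30.7 and 84.9 with treatment. Its groups overlapped through vehicle replicate 2, and its difference of 1.82 ± 0.78 missed the threshold (adjusted p = 0.0678 by limma). Replicate 2 was the lowest of the treated tumours for all 3 chains.

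Of the genes of peptide exchange, H2-DMb1 had 3.18, 4.90 and 7.28 FPKM with vehicle and 33.5, 9.11 and 25.3 with treatment and rose by 1.92 ± 0.67 (adjusted p = 0.0344 by limma). H2-DMb2, its near copy, had 6.36, 6.80 and 9.59 against 38.4, 11.1 and 28.2 FPKM, without overlap, yet its difference of 1.56 ± 0.62 missed the threshold (adjusted p = 0.0528 by limma). H2-DMa, the alpha chain of H2-DM, had 17.8, 42.5 and 33.1 against 97.8, 36.9 and 81.7 FPKM. Its groups overlapped, with a difference of 1.17 ± 0.50 and an adjusted p of 0.0683 by limma. H2-Ob rose by 0.99 ± 0.38 (adjusted p = 0.0488 by limma), from 0.0971, 0.101 and 0.248 FPKM to 1.99, 0.247 and 0.627. The lowest treated tumour lay within the vehicle range, and the call for H2-Ob was lost with a pseudocount of 1. H2-Oa had 0.126, 0.620 and 0.240 against 3.31, 0.390 and 1.51 FPKM, a difference of 1.24 ± 0.53 with an adjusted p of 0.0669 by limma.

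Cd74 had 218, 464 and 444 FPKM with vehicle and 2594, 750.1 and 1955 with treatment. The groups did not overlap, and Cd74 rose by 2.13 ± 0.69 (adjusted p = 0.0257 by limma). Ciita had 1.05, 1.53 and 2.59 FPKM against 10.1, 3.08 and 7.84, also without overlap, with a difference of 1.68 ± 0.70 that missed the threshold (adjusted p = 0.0623 by limma). Thus the transactivator itself was not among the members called, while its 95% interval of 0.18 to 3.17 lay above 0.

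These calls rested on single tumours. The count of members called was 0 without vehicle replicate 1, 2 without vehicle replicate 2, 0 without treated replicate 1 or 3, and 10 without treated replicate 2. The share of all genes called in each of these refits is not given here, so the counts are no result particular to the members. Without the 3 libraries that lay apart, 8 members were higher, all except H2-Oa (adjusted p = 0.0612) and H2-Ob (0.0952), by limma over the same genes, of which 44.2% were then called. H2-Ab1 then had a difference of 2.82 ± 0.62 (adjusted p = 0.0131 by limma), vehicle replicate 2 being one of the 3, and Ciita 1.64 ± 0.55 (0.0347). These 3 libraries were chosen after the data were seen. They are also the 3 with the highest ratio of H2-Ab1 to H2-Aa, so this refit is not independent of the members. With no filter on low values, 0 of 10 members passed.

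Other genes of the class II pathway moved in the same comparison. The list of processing genes, fixed with earlier results of these data known, had 7 of 9 members higher, with a median of 1.71. Ctss, the protease that trims the invariant chain, rose by 2.25 ± 0.57 (adjusted p = 0.0130), and Ifi30, a thiol reductase of the same compartment, by 1.91 ± 0.48 (adjusted p = 0.0126). Of 14 genes of class II transcription and interferon gamma signalling, 8 were higher and 3 lower, with a median of 0.41. For comparison, 3532 of all 15070 genes were higher and 3101 lower. Ifng, which encodes interferon gamma, rose by 1.66 ± 0.36 (adjusted p = 0.0101), and Irf1, a factor that carries its signal, by 0.77 ± 0.24 (0.0223). Among the subunits of RFX, Rfx5 rose by 0.31 ± 0.11 (adjusted p = 0.0435), while Rfxap had −0.34 ± 0.16 (0.0877) and Rfxank −0.14 ± 0.12 (0.328). All of these are values of the same limma fit.

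Markers of many cell types moved with the group, those of cells that make class II molecules among them. The macrophage and monocyte list had 10 of 13 tested genes higher and the dendritic cell list 10 of 12. The B cell list had 5 of 6 of its 10 genes higher, the others being below the filter. The T cell list had 3 of 12, near the share of all genes that were higher (23.4%). Its differences were positive for 12 of 12 genes, with a median of 1.25. By limma 6 of these 12 had an unadjusted p under 0.05, as did 56.0% of all genes. Adgre1 (F4/80) rose by 2.43 ± 0.67, Csf1r by 1.91 ± 0.61, Flt3 by 1.57 ± 0.52, Itgax by 1.51 ± 0.41, Cd79a by 2.17 ± 0.60 and Ms4a1 by 1.38 ± 0.47, all passing limma's test, whereas Cd3e had 0.96 ± 0.71 (adjusted p = 0.265). As the mean of log2(FPKM + 0.5) over a list, the macrophage score was 5.62 to 6.02 in the vehicle tumours and 7.33 to 8.11 in the treated ones, and the dendritic cell score 0.96 to 1.36 and 2.30 to 3.33. The B cell score was −0.09 to 0.32 and 0.51 to 2.71. The neutrophil list had 7 of 8 genes higher (median 3.74), the lymph node stroma list 3 of 3 (2.04) and the keratinocyte list 5 of 6 (1.55). Their scores were 1.68 to 2.00, −0.86 to 0.43 and −0.69 to −0.45 with vehicle and 4.55 to 5.996, 1.19 to 3.55 and 0.95 to 1.08 with treatment. None of these 6 scores overlapped between the groups. The T cell score (1.66 to 2.00 with vehicle, 2.55 to 3.78 with treatment) did not overlap either. Nor did the interferon gamma response score (4.82 to 5.63 and 5.86 to 6.19). The share of all genes without overlap is not given here. The part of these cells and genes in the difference of the members was not tested.

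Genes of fat tissue were higher as well. All 10 tested adipocyte genes were higher, with a median difference of 3.75, and Adipoq, the adiponectin gene, rose by 5.12 ± 1.32. The adipocyte score was 5.61 to 5.93 in the treated tumours and 0.98, 3.68 and 1.66 in the vehicle tumours. With that score as a covariate, 0 of 10 members passed, and the difference of Cd74 was −0.15. Since the score separated the groups, their shares in the difference cannot be told apart.

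**Figure D3:**
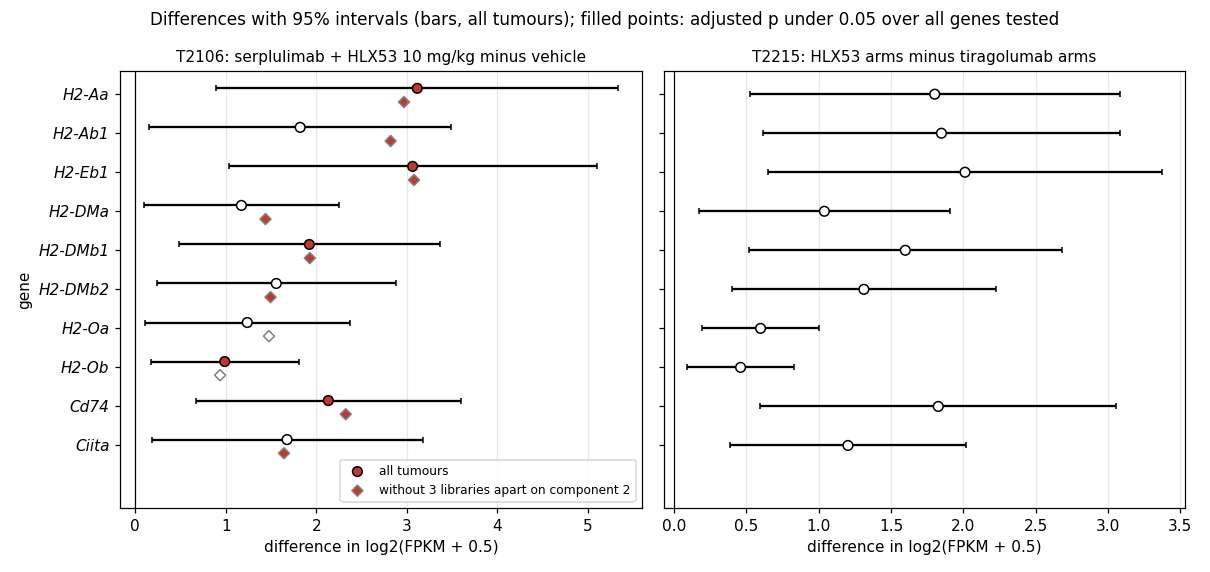
Difference of each gene in log2(FPKM + 0.5), with its 95% interval, for serplulimab plus HLX53 at 10 mg/kg minus vehicle in T2106 (left) and for the HLX53 arms minus the tiragolumab arms in T2215 (right); filled points have an adjusted p under 0.05, and diamonds leave out the 3 libraries of T2106 that lay apart. On the left 5 circles are filled and H2-Ab1 moves from 1.82 to 2.82 without those libraries, and on the right 0 of 10 are filled.

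At 5 mg/kg of HLX53 with serplulimab, 0 of 10 members passed against vehicle by limma, where 1.02% of all genes were called. An unadjusted p under 0.05 was found for 1 member (Cd74) and for 28.7% of all genes. The median difference was 1.17, beside −0.08 for all genes, and 2.12 without the libraries that lay apart. The 3 tumours differed: H2-Aa had 95.9, 237 and 5.07 FPKM, Cd74 1410, 2625 and 277, and Ciita 5.45, 12.2 and 0.496. Replicates 1 and 2 were above all vehicle tumours for these genes, and replicate 3 was below or within them. Without replicate 3, 7 members passed, and the share of all genes called then is not given here. Without all 3 libraries that lay apart, 6 did, namely H2-Aa, H2-Ab1, H2-Eb1, H2-DMb1, Cd74 and Ciita, where 17.7% of all genes were called. Ciita then had a difference of 1.99 ± 0.60 (adjusted p = 0.0474 by limma). This refit leaves out the same 3 libraries and is likewise not independent of the members.

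Between the doses, 10 against 5 mg/kg, 0 members passed by limma, 0 had an unadjusted p under 0.05, and 0.139% of all genes were called. The median difference was 0.63 with 10 of 10 positive, and Cd74 had 0.63 ± 0.69. This direction rested on the libraries that lay apart, replicate 3 at 5 mg/kg among them: without them the median was −0.24, 2 of 10 members were positive, and Cd74 had −0.30 ± 0.57. Against serplulimab alone, the pair at 10 mg/kg had a median difference of 1.21 with 0 of 10 members passing and 2 at an unadjusted p under 0.05 (H2-Ab1 and H2-DMa), where 1.59% of all genes were called and 35.9% had an unadjusted p under 0.05. Against HLX53 alone, it had a median difference of 1.24 with 0 passing and 3 at an unadjusted p under 0.05 (H2-Eb1, H2-Ob and Cd74), where 26.8% of all genes were called and 48.4% had an unadjusted p under 0.05. In both, the share of members at that p was below the share of all genes. A fit of the 10 mg/kg pair and HLX53 groups by themselves called 3, H2-Aa, H2-Eb1 and Cd74. Without treated replicate 2, 5 passed against HLX53. Without serplulimab replicate 1, 1 (H2-DMa) passed against serplulimab. The share of all genes called in these refits is not given here, so the counts are no result particular to the members.

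The single agents and the other pair of T2106 gave smaller differences, and since all share the vehicle tumours their values are given side by side. Serplulimab had a median difference of 0.46 with 10 of 10 members positive, and HLX53 0.51 with 10 of 10 positive. Pembrolizumab plus tiragolumab had −0.45 with 1 of 10 positive. In each of the 3, 0 of 10 members passed by limma and 0 had an unadjusted p under 0.05, while 0%, 0.00664% and 0% of all genes were called. In the same order, 8.49%, 3.86% and 5.14% of all genes had such an unadjusted p. For Ciita the differences were 0.55 ± 0.70, 0.61 ± 0.70 and −0.33 ± 0.70. Intervals of this width include both a rise and a fall.

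In T2215, 0 of 10 members passed by limma in any of 13 comparisons, with or without the 2 serplulimab libraries that lay apart. Against vehicle, the members had a median difference of 0.74 with serplulimab plus HLX53 (10 of 10 positive), 0.23 with pembrolizumab plus HLX53 (9 positive) and −0.38 with HLX53 alone (0 positive). The treated groups without HLX53 had lower median differences, with 0 members positive in each. These were −0.60 with serplulimab plus tiragolumab, −1.04 with serplulimab, −1.17 with pembrolizumab, −1.24 with tiragolumab and −2.07 with pembrolizumab plus tiragolumab. This order is one of log2 differences: by mean FPKM of Cd74, serplulimab (716) lay above HLX53 alone (664). Without the 2 serplulimab libraries that lay apart, which leaves 1 tumour in that group, assumed to vary like the others, the median with serplulimab was −2.0001. These 8 comparisons share their vehicle tumours. The share of all genes called was 0% in each, apart from 0.00671% for pembrolizumab plus HLX53 and 0.0134% for pembrolizumab plus tiragolumab. At an unadjusted p under 0.05 were 18.3% of all genes with serplulimab plus HLX53, 12.4% with serplulimab and 6.43% with pembrolizumab plus HLX53. With pembrolizumab, HLX53, tiragolumab and serplulimab plus tiragolumab, 0.939% to 1.35% were. The count of members at that p was 0 in each comparison apart from pembrolizumab plus tiragolumab.

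In that last group 8 of 10 members had an unadjusted p under 0.05, as did 4.39% of all genes, and the adjusted p of Cd74, H2-Eb1 and Ciita was 0.9999 by limma. Cd74 had 105, 57.0 and 330.4 FPKM against 958, 445 and 639 with vehicle, without overlap, a difference of −2.36 ± 1.02. H2-Eb1 had 15.001, 9.45 and 61.7 against 175, 72.6 and 111 FPKM, without overlap, a difference of −2.41 ± 1.13. Ciita had 0.357, 0.281 and 2.26 against 5.18, 2.09 and 2.75 FPKM, with overlap, a difference of −1.56 ± 0.68. Replicate 3 was the highest of the treated tumours for all 3 genes. In T2106 the same pair against its own vehicle gave −0.60 ± 0.69 for Cd74, −0.42 ± 0.95 for H2-Eb1 and −0.33 ± 0.70 for Ciita. Lying below vehicle was not particular to this pair in T2215. With pembrolizumab alone Cd74 had 219.8 to 366.8 FPKM, H2-Eb1 32.3 to 50.9 and Ciita 1.30 to 1.86, all without overlap with vehicle.

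Serplulimab plus HLX53, the pair that passed in T2106 at 10 mg/kg, was given at that dose in T2215 as well. Cd74 had 1675, 2214.9 and 529 FPKM, overlapping the vehicle tumours, a difference of 0.95 ± 1.02. H2-Eb1 had 364, 495 and 107 FPKM, a difference of 1.25 ± 1.13, and Ciita had 5.46, 9.02 and 2.05 FPKM, a difference of 0.53 ± 0.68. Replicates 1 and 2 were above all vehicle tumours for these genes, and replicate 3 was within or below their range. Vehicle tumours of T2215 had more Cd74 than those of T2106 as listed (445 to 958 against 218 to 464 FPKM), but the tables were deposited separately and this was not tested.

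Averaged over the design of T2215, a PD-1 antibody against none gave the members a median difference of −0.06 (2 of 10 positive) and a TIGIT antibody against none 0.18 (9 positive). The serplulimab arms against the pembrolizumab arms gave 0.71 (10 positive), and the interaction of PD-1 with TIGIT antibodies 1.47 (10 positive). Without the 2 serplulimab libraries that lay apart these medians were −0.25 (2 positive), 0.495 (10 positive), 0.35 (10 positive) and 1.985 (10 positive). By limma 0 members passed and 0 had an unadjusted p under 0.05 in each of these 4, while 0%, 0.0134%, 0% and 0% of all genes were called. In the same order, 7.28%, 6.62%, 9.51% and 1.14% of all genes had such an unadjusted p.

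The HLX53 arms against the tiragolumab arms, 9 tumours each with the PD-1 antibody balanced, asked whether the 2 TIGIT antibodies differed. The members had a median difference of 1.46, beside −0.03 for all genes, and all 10 were positive. By limma 0 of 10 passed, 10 of 10 had an unadjusted p under 0.05, and 0% of all 14914 genes were called, with 3964 genes at an unadjusted p under 0.05. H2-Eb1 ranged from 49.0 to 495 FPKM in the HLX53 arms (median 116) and from 9.45 to 199 in the tiragolumab arms (median 20.2), a difference of 2.01 ± 0.65 (adjusted p = 0.1545 by limma). Cd74 ranged from 291 to 2214.9 (median 651) and from 57.0 to 1007 (median 164), a difference of 1.83 ± 0.59. Ciita ranged from 1.07 to 9.02 (median 3.53) and from 0.281 to 4.22 (median 0.769), a difference of 1.202 ± 0.39. The arms overlapped for all 3 genes. The other 7 members had differences from 0.46 ± 0.18 (H2-Ob) to 1.85 ± 0.59 (H2-Ab1).

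Of the T cell list 0 of 12 genes passed the adjusted test between these arms, while 12 of 12 had an unadjusted p under 0.05, with a median difference of 1.16. Of all genes 26.6% had such a p. Of the interferon gamma response list 9 of 12 did (median 1.08), of the neutrophil list 6 of 7 (1.31), of the dendritic cell list 6 of 12 (0.60) and of the macrophage list 3 of 13 (0.47). Cd3e had 1.22 ± 0.43, Ctss 0.79 ± 0.31 and Csf1r 0.36 ± 0.32. The part of these cells in the difference of the members was not tested. Without the 2 serplulimab libraries that lay apart, which are in neither arm, the difference of Cd74 was the same and its adjusted p was 0.1082 by limma.

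The chain genes kept nearly fixed ratios in most tumours. H2-Ab1 over H2-Aa, the partners of I-A, was 0.499 to 0.733 in all 27 tumours of T2215 and 0.452 to 0.642 in 15 tumours of T2106. In the other 3 it was 5.95 (vehicle replicate 2), 4.79 (replicate 3 of serplulimab plus HLX53 at 5 mg/kg) and 2.56 (HLX53 replicate 2), and these are the 3 libraries with the highest loadings on component 2 of the genes other than the members. In vehicle replicate 2 H2-Ab1 had 74.5 FPKM while H2-Aa had 12.5, so the beta chain was above that of both other vehicle tumours and the alpha chain was between them. H2-DMa over H2-DMb1 was also higher in these 3, at 8.68, 8.31 and 10.5, against 2.88 to 5.59 in the other T2106 tumours. In T2215 that ratio reached 11.2 in tiragolumab replicate 3 and 10.96 in replicate 2 of pembrolizumab plus tiragolumab, where class II levels were low and H2-Ab1 over H2-Aa was 0.532 and 0.622.

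**Figure D4:**
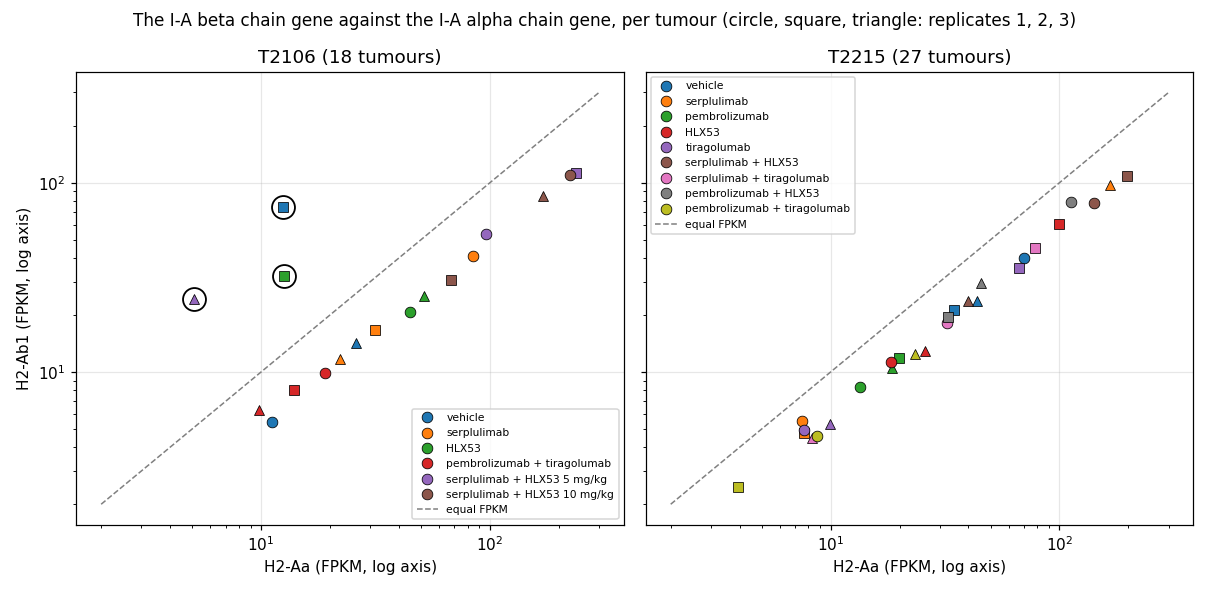
H2-Ab1 against H2-Aa in each tumour, both in FPKM on log axes, with T2106 on the left and T2215 on the right; the dashed line marks equal levels and rings mark the 3 libraries of T2106 with the highest loadings on component 2 of the other genes. The ringed tumours lie above the line at ratios of 2.56 to 5.95, and every other tumour lies below it.

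The ratio of H2-Aa to H2-Eb1 was 0.221 to 0.484 in T2106 and 0.358 to 0.580 in T2215. H2-Ea-ps (ENSMUSG00000036322, chromosome 17, 34341959 to 34344645, minus strand) is the I-E alpha chain locus, annotated as a polymorphic pseudogene in the reference, since some strains carry a working copy and others a broken one. In these tumours of BALB/c background it had 32.1 to 904 FPKM in T2106 and 14.4 to 726 in T2215, a median of 1.68 and 1.60 times the level of its partner H2-Eb1. It rose by 2.66 ± 0.94 with serplulimab plus HLX53 at 10 mg/kg against vehicle (adjusted p = 0.0353 by limma). H2-Eb2, a further I-E beta locus, stayed at or below 0.146 FPKM in all libraries and was not tested.

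Ciita and the other members varied together across tumours. In T2215 (27 tumours) the correlation of Ciita with Cd74 on the log2 scale was r = 0.970 (rho = 0.966), and those with the other 8 members ranged from 0.841 (H2-Oa) to 0.969 (H2-DMb1). In T2106 (18 tumours) they ranged from 0.790 (H2-Ab1) to 0.976 (H2-DMb2), with 0.961 for Cd74 (rho = 0.932). Over the other members rho was 0.800 to 0.967 in T2215 and 0.771 to 0.969 in T2106. The permutation p of r was 1e-05 for each, the smallest that 100000 resamples can give, apart from H2-Ab1 in T2106 with 9e-05, and the adjusted values over 28 relations were 1.08e-05 and 9.33e-05. The permutation p of rho was at most 0.00025 (0.000259 adjusted), for H2-Oa in T2106. Without the 2 tumours farthest from the median of Ciita, r with Cd74 was 0.963 in T2215 and 0.934 in T2106, and r with H2-Ab1 in T2106 was 0.672. Taken as deviations from the group means, r with Cd74 was 0.959 and 0.960, so the relation held within groups. The points of a correlation share their library.

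**Figure D5:**
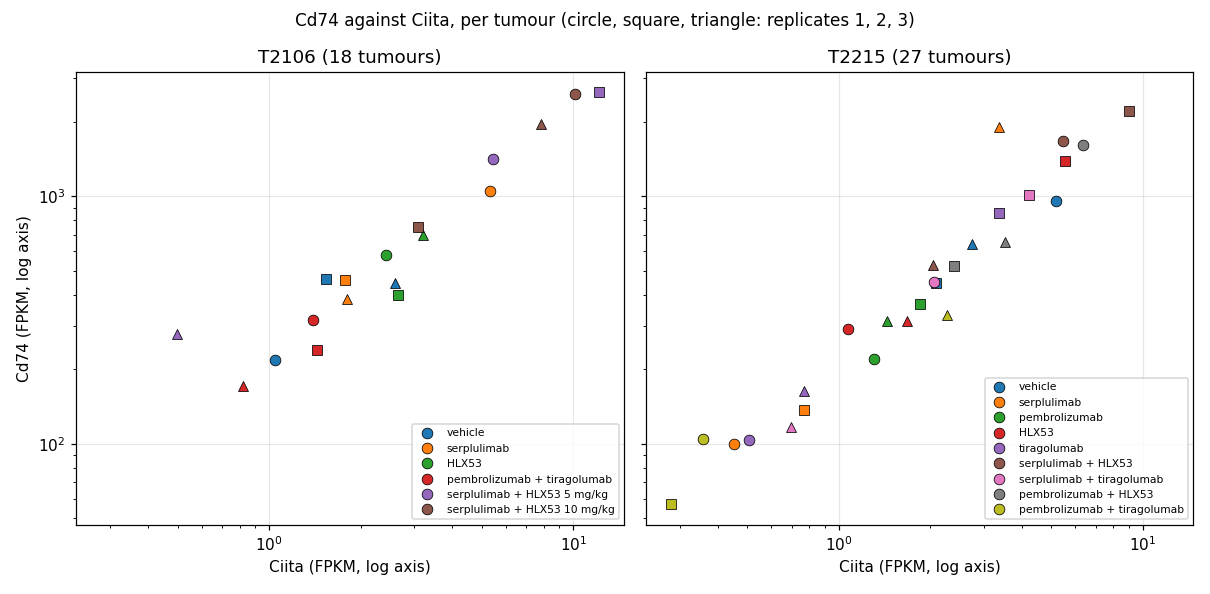
Cd74 against Ciita in each tumour, both in FPKM on log axes, with T2106 on the left and T2215 on the right. The tumours follow one band in both experiments (r = 0.961 and 0.970), and replicate 3 of serplulimab plus HLX53 at 5 mg/kg (left) and serplulimab replicate 3 (right) have the most Cd74 for their Ciita.

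Cd74 had 146 to 307 times the FPKM of Ciita in all tumours but 2. Those were replicate 3 of serplulimab plus HLX53 at 5 mg/kg in T2106, at 558 times, and serplulimab replicate 3 in T2215, at 569 times. Both are among the libraries that lay apart. In serplulimab replicate 3 H2-Ea-ps was also low beside H2-Eb1, at 0.960 times, the lowest ratio of all tumours.

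Ciita also followed Ifng, with r = 0.825 in T2215 (rho = 0.810, permutation p = 1e-05 for both) and 0.769 in T2106 (rho = 0.7503, permutation p = 0.00027 for r and 0.00055 for rho). Without the 2 tumours farthest from the median these were 0.777 and 0.769, and as deviations from the group means 0.802 and 0.703. Cd74 correlated with the T cell score at 0.960 in T2215 and 0.934 in T2106. With the macrophage and monocyte score it was 0.741 and 0.945, with the dendritic cell score 0.778 and 0.931, and with the B cell score 0.763 and 0.897. In that order of scores rho was 0.956, 0.769, 0.772 and 0.738 in T2215 and 0.911, 0.909, 0.903 and 0.905 in T2106. Each r had a permutation p of 1e-05 (1.08e-05 adjusted), and each rho one of at most 2e-05 (2.33e-05 adjusted). Without the 2 tumours farthest from the median of the score, r was 0.676 (macrophage) to 0.951 (T cell) in T2215 and 0.883 (dendritic cell) to 0.908 (B cell) in T2106. T cells of mice do not usually make class II molecules, and the differences between these correlations were not tested.

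Outside the members, the 14636 genes tested in both experiments were ranked by the lower of their 2 Spearman correlations across tumours. The 6 genes most like Ciita were H2-Ea-ps (rho = 0.969 in T2106 and 0.962 in T2215), AB124611 (0.9752 and 0.961), Plbd1 (0.961 and 0.965), Fam49a (0.973 and 0.960), Rasal3 (0.957 and 0.955) and Prex1 (0.957 and 0.951). Those most like Cd74 were Aif1, a gene of macrophages (0.963 and 0.984), H2-Ea-ps (0.961 and 0.982), Lck, a kinase of T cells (0.951 and 0.968), Cxcl16, a chemokine (0.948 and 0.944), Gpr65, a receptor of leukocytes (0.940 and 0.944), and Ptprcap, which encodes a partner of CD45 (0.957 and 0.939). H2-Ea-ps stood on both lists, which makes it the gene outside the 10 that ran closest to both of them by this measure.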

How the data were processed

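RNA of 45 CT26 tumours was sequenced as paired 150-base reads. The submitters' processing notes name Bowtie, STAR, Trimmomatic and FastQC, and as builds mm10, GRCh37 and hg19; they give no version and no role. Which program computed the expression values is not given in these sources. Both deposited tables, 1 per experiment, hold log2 FPKM made by the authors, as their names say. Whether the tables share a scale is not stated, so each was fitted alone. Read depth is unknown, so intervals for counting error are left out.

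The log2 values were converted back and tests ran on log2(FPKM + 0.5), which understates changes of low genes. The filter, 0.5 FPKM in 3 or more libraries, left 15070 genes in T2106 and 14914 in T2215 for limma 3.58.1 under R 4.3.3 with all groups of an experiment (lmFit, contrasts.fit, eBayes with a trend). P-values were adjusted by Benjamini-Hochberg over every gene tested, with a threshold of 0.05, and measure the spread between tumours. The comparisons numbered 21 (8 and 13). Arms of T2215 were averaged with equal weight over the other antibody class. The fit was tested on simulated data with large planted changes and a spread capped below that of many groups of the members. It therefore does not show how often changes of the members would be found. Correlations used two-sided permutation tests with 100000 resamples in Python 3.11.15 with scipy 1.17.1, adjusted over 28 relations. Principal components were computed without the members.

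The members and lists were chosen with earlier results of these data known. Named genes were the members in every group, a fixed panel of pathway and cell marker genes (1 of which is not reported here), and the 6 genes most like Ciita and most like Cd74; the rest of each list is given as counts. List genes H2-Ea and Fdcsp matched no symbol. Where a symbol had several gene models, that with the highest mean was used. Krt18, Epcam, Vim and Ptprc were added after the data were seen, to check the labelled cell type. Replicate numbers only name tumours. Alternatives were the pseudocount, the filter, median centring, a replicate block, the adipocyte score as covariate, only the groups compared, each replicate left out and, chosen after seeing the data, the libraries apart left out.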

Additional observations from a re-analysis of the deposited data

How the results depend on the processing

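The count of 5 members called for the 10 mg/kg pair of T2106 against vehicle was 0 with no filter and 0 with the adipocyte score as covariate, where H2-Aa (−0.0729), H2-DMb1 (−0.0731) and Cd74 (−0.15) changed sign. It was 8 without the libraries that lay apart, and 0 to 10 with single replicates left out. Against HLX53 the count of 0 became 3 with only the groups compared and 0 to 5 with single replicates left out, and against serplulimab 0 to 1. At 5 mg/kg against vehicle it became 6 without the libraries apart and 0 to 7 with single replicates left out. The shares of all genes called with single replicates left out, or with only the groups compared, are not given here. The other 17 comparisons stayed at 0 with every replicate left out, and in T2215 no alternative called a member. Pseudocounts of 0.1 and 1 and median centring left every count within 1.5 times, at 4 to 6 for that comparison. A replicate block gave 5 there and 0 elsewhere. The labels do not say that replicate numbers pair tumours: same-numbered tumours had a median correlation of −0.03 in T2106 and −0.04 in T2215 in their deviations, beside −0.01 and 0.01 for different numbers. Only the groups compared could not differ from the fit reported where a comparison used all groups, and gave no value there.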
